A study of Homo sapiens with 10 samples.

Results

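Desmosomes are intercellular junctions that fasten the intermediate filaments of one cell to those of its neighbour, and 9 genes that encode their parts are described here across insulator-disrupted derivatives and control cells of a gastrointestinal stromal tumour (GIST) line. The genes were DSP, JUP, PKP1, PKP2, PKP3, PKP4, DSG2, DSC2 and DSC3, found by symbol among the 58381 gene rows of each library. The set was chosen by symbol around DSP, and DSP had been selected on its lower level in the derivative lines than in control. The fall of DSP in InsE was among the results that chose it. Every comparison of these 9 genes with control is therefore given as a description, with no test. The same holds for DSP in InsE against the other lines. Of the 9 genes, 5 (DSP, JUP, PKP2, PKP4 and DSG2) passed the filter on low counts that left 15554 genes for testing, and the other 4 had between 0 and 3 counts over all 10 libraries.

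In a desmosome, the desmogleins (DSG) and desmocollins (DSC) are the transmembrane cadherins that bind across the gap between cells. Plakoglobin, encoded by JUP, and the plakophilins (PKP) are armadillo-repeat proteins that bind the cadherin tails, and desmoplakin, encoded by DSP, ties this plaque to intermediate filaments. Desmosomes are best known from epidermis, other epithelia and heart muscle, whereas GIST arises from cells related to the interstitial cells of Cajal, the pacemakers of the gut wall.

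GIST-T1 is an established human line from a metastatic GIST with an intact SDH complex, the mitochondrial enzyme whose loss defines another class of GIST. RNA was sequenced from the derivative lines InsE, InsF, InsG and InsH, in each of which a CTCF insulator had been disrupted, and from control GIST-T1 cells with the genotype given as WT, 2 libraries for each. CTCF binds DNA at many boundaries between chromosome loops, and the design asks what losing such a boundary does to expression in SDH-intact cells. The labels give neither the edited site of each lettered line, nor whether a line was 1 clone, nor whether the 2 libraries of each group were grown separately. The p-values below thus rest on library-to-library spread alone, and that spread may be technical.

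Libraries held 9.40 to 42.5 M (mega) expected counts, with 22.9 to 42.5 M in the replicate 1 libraries and 9.40 to 20.1 M in the replicate 2 libraries, and InsE replicate 2 was the smallest. All 10 markers of GIST and the interstitial cells of Cajal averaged above 1 TPM (a transcript's share of the library, corrected for its length) in every group, with a summed level of 2730 to 2985 TPM in the derivative lines and 3631 to 3645 TPM in control. Of 8 epithelial markers, KRT8 and KRT18 were above 1 TPM, and KRT19 and ESRP1 had no count in any library. The summed epithelial markers ran from 194 to 255 TPM in the derivative lines and from 269 to 278 TPM in control. The keratinocyte markers KRT1, KRT14, DSG1 and DSG3 and the cardiac markers MYH6 and MYH7 were at 0 throughout. In each group 1 of the 7 keratinocyte markers and 1 or 2 of the 6 cardiac markers averaged above 1 TPM. Summed keratinocyte markers ran from 14.13 to 25.95 TPM in the derivative lines, with 18.93 and 13.88 TPM in control. The cardiac sums were 3.97 to 9.27 TPM in the derivative lines and 3.55 and 3.42 TPM in control. The part of these marker levels in the results below was not tested.

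DSP, the plakin that links the plaque to filaments, was a low-level transcript in every library. In InsE it had 0.15 and 0.08 TPM, from 25 and 5 counts. It had 0.54 and 0.50 TPM in InsF, 0.55 and 0.69 TPM in InsG and 0.54 and 0.39 TPM in InsH, against 1.22 and 1.22 TPM in control, where it drew 211 and 136 counts. All 8 derivative libraries lay below both control libraries, and both InsE libraries lay below the other 6. The log2 change in counts was −3.28 ± 0.22 for InsE, −1.34 ± 0.18 for InsF, −1.17 ± 0.18 for InsG and −1.46 ± 0.19 for InsH (SE of the fit, 2 libraries per group), so that DSP stood at 0.103 times its control level in InsE and at 0.365 to 0.444 times in the others. Over the mean of the 4 lines the log2 change was −1.81 ± 0.14. Counting error alone put DSP between 0.497 and 1.05 CPM (counts scaled by library size) in the summed InsE libraries and between 6.33 and 7.84 CPM in the summed control libraries (95% Poisson intervals). Without InsE replicate 1 the InsE change was −3.72. On log2(TPM + 1), a scale that shrinks changes of low genes, it was −0.99. In bulk RNA, fewer cells with a transcript and less of it per cell cannot be told apart.

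The DSP gene lies on the plus strand of chromosome 6 (hg38, 7541575 to 7586717, GENCODE 29). Its promoter is printed with those of DSG2, which had another pattern over the lines, and DSC2, which had no counts, so that the sequences of 3 unlike members can be read side by side. They are RefSeq windows on GRCh38.p14 from 250 bases before to 50 bases after a start, DSP at chr6:7541421-7541720 (plus strand), DSG2 at chr18:31497927-31498226 (plus strand) and 1 of the DSC2 starts at chr18:31102372-31102671 (minus strand), read 5′ to 3′. Capitals mark the E2 box, CAGGTG or its reverse complement CACCTG, the letters that repressors of the Snail and ZEB families are known to bind.
DSP: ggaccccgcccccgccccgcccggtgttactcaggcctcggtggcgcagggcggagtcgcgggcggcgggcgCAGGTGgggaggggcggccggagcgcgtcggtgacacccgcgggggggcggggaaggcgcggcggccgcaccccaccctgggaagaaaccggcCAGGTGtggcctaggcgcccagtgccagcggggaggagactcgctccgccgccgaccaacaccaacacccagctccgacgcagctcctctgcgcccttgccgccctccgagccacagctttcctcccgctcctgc
DSG2: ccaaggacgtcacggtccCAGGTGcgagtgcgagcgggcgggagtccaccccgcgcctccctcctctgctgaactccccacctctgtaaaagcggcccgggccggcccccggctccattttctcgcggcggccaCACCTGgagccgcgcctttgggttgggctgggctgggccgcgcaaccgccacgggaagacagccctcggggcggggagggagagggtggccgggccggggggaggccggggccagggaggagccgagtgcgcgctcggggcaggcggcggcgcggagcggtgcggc
DSC2: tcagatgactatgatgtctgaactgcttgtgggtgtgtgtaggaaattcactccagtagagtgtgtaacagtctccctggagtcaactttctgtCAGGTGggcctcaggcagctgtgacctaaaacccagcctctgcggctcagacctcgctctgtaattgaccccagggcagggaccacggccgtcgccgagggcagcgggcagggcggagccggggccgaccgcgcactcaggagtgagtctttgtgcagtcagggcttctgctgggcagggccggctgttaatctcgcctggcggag
DSP and DSG2 each held 2 E2 boxes and this DSC2 window held 1, where 20.6% of 35116 promoters of that length held at least 1 and 3.5% at least 2. Over the 10 promoters found for 7 of the 9 genes, 1 of the JUP starts also held 2, and the JUP, PKP1, PKP4, DSC2 and DSC3 windows not named here held none. The GC box GGGCGG, searched on both strands, occurred 8 times in the DSP window and 2 times in the DSG2 window, and 45.0% of all promoters held at least 1. No window of these genes held TATAAA on either strand, a motif found in 11.5% of all promoters. A match is a description of the letters and does not show binding.

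Plakoglobin was far more abundant than desmoplakin transcripts. JUP had 25.9 and 28.5 TPM in InsE, 33.4 and 37.3 TPM in InsF, 31.1 and 35.3 TPM in InsG and 33.0 and 34.5 TPM in InsH, against 27.1 and 26.3 TPM in control. The 6 InsF, InsG and InsH libraries were above both control libraries, whereas the InsE libraries lay on either side of them. In counts, the log2 change from control was 0.03 ± 0.11 for InsE, 0.34 ± 0.10 for InsF, 0.22 ± 0.11 for InsG and 0.32 ± 0.11 for InsH. JUP lies on chromosome 17 (41754604 to 41786931, minus strand).

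Among the plakophilins, PKP4, which is also found at adherens junctions, supplied 85.0% to 89.9% of the summed plakophilin TPM in each library. PKP4 had 38.3 and 36.1 TPM in InsE, 38.7 and 40.7 TPM in InsF, 37.4 and 38.1 TPM in InsG and 40.3 and 43.6 TPM in InsH, against 38.4 and 35.2 TPM in control. The InsE and InsG libraries lay within the range of control, and the InsF and InsH libraries were above it. In counts, every line was within 0.09 of control on the log2 scale (0.02 ± 0.07 for InsE, 0.08 ± 0.07 for InsF, −0.03 ± 0.07 for InsG and 0.00 ± 0.07 for InsH). PKP4 spans chromosome 2 from 158456964 to 158682879 on the plus strand. An antisense gene that overlaps part of it had 33.4 counts over all libraries, and with the strand setting unknown the reads of such a pair cannot be told apart.

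PKP2, the plakophilin of heart and simple epithelia, was several times lower than PKP4. It had 4.31 and 4.34 TPM in InsE, 6.81 and 5.68 TPM in InsF, 6.08 and 6.45 TPM in InsG and 6.02 and 5.76 TPM in InsH, against 4.30 and 4.04 TPM in control. Every InsF, InsG and InsH library was above every InsE and control library. The log2 change from control was 0.07 ± 0.10 for InsE, 0.46 ± 0.09 for InsF, 0.47 ± 0.09 for InsG and 0.40 ± 0.10 for InsH. PKP2 lies on chromosome 12 (32790745 to 32896840, minus strand).

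DSG2, the most widely expressed desmoglein, was the only desmosomal cadherin of the set with a level above the limit of detection. It had 12.6 and 10.3 TPM in InsE, 20.6 and 17.4 TPM in InsF, 22.8 and 20.2 TPM in InsG and 21.0 and 18.4 TPM in InsH, against 12.9 and 11.96 TPM in control. The InsF, InsG and InsH libraries again stood apart above the rest, and the InsE range overlapped that of control. The log2 change from control was −0.11 ± 0.09 for InsE, 0.54 ± 0.09 for InsF, 0.70 ± 0.09 for InsG and 0.58 ± 0.09 for InsH. DSG2 lies on chromosome 18 (31498043 to 31549008, plus strand), and an antisense gene that overlaps it had 1.01 counts in all.

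**Figure D1:**
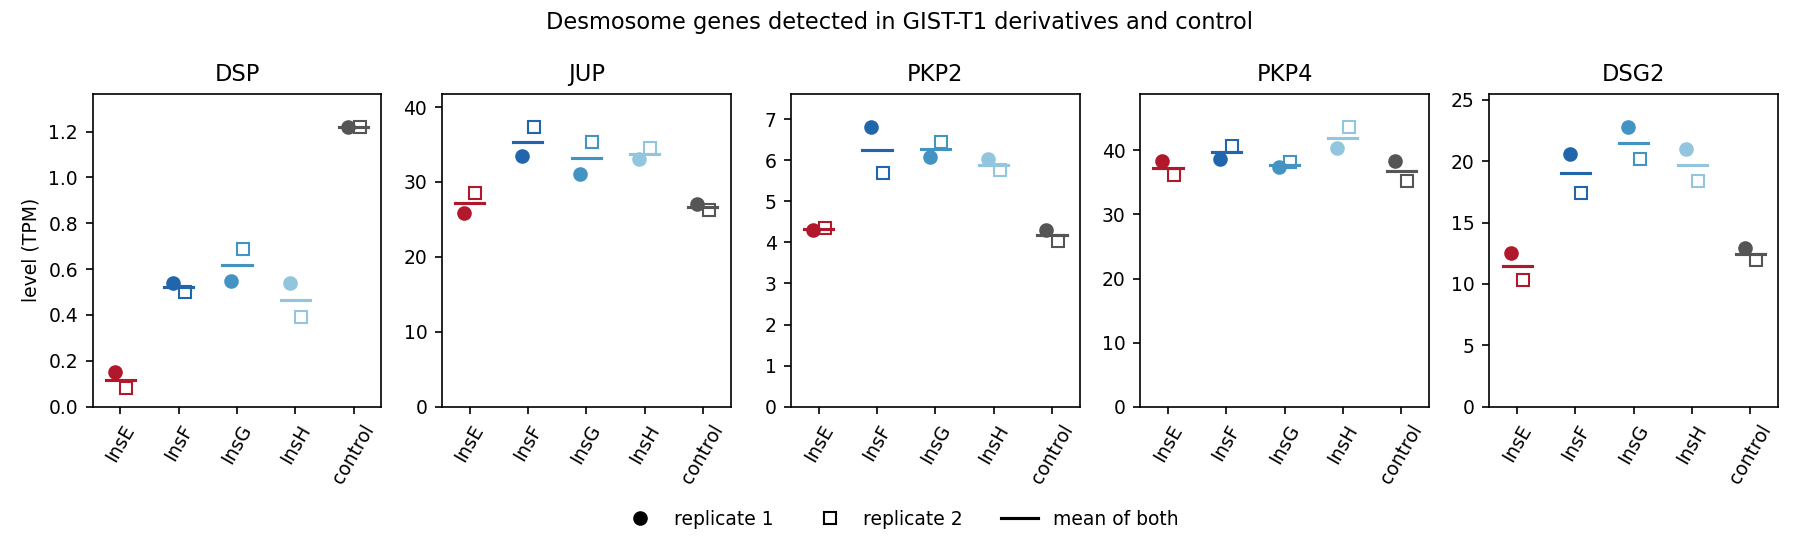
TPM of the 5 detected desmosome genes (vertical axes from 0, scaled per gene) in InsE, InsF, InsG, InsH and control, with replicate 1 as filled circles, replicate 2 as open squares and a line at the mean of both. DSP is at or below 0.69 TPM in every derivative library and at 1.22 TPM in control, whereas DSG2 and PKP2 stand higher in InsF, InsG and InsH than in InsE and control.

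The desmocollins DSC2 and DSC3, the partners of the desmogleins, had 0 counts in all 10 libraries, which allows a level of up to 0.0135 CPM over the 222.8 M normalised counts. PKP1, the plakophilin of the upper epidermis, had 2 counts in all, both in InsH. PKP3, found in most epithelia, had 3 counts in all, 2 in InsE and 1 in InsF. Neither was above 3 counts in any group, so no level or change is given for them. The desmogleins and desmocollin outside the set, DSG1, DSG3, DSG4 and DSC1, were listed at 0 TPM in every library. These limits cover counting error only.

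Against control, 3 of the 5 genes that passed the filter met the rule used for calls (adjusted p under 0.05 in edgeR) in the mean of the 4 lines, DSP lower and PKP2 and DSG2 higher, where 27.6% of the 15554 genes met it. In single lines the count was 1 in InsE (DSP) against 23.2% of all genes, 4 in InsF (DSP, JUP, PKP2 and DSG2) against 22.3%, 3 in InsG against 20.3% and 3 in InsH against 18.4%. In InsG and InsH these were DSP, PKP2 and DSG2. Because the control contrast was used in the choice of the set, nothing is read from these counts. The 4 contrasts share the control libraries.

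**Figure D2:**
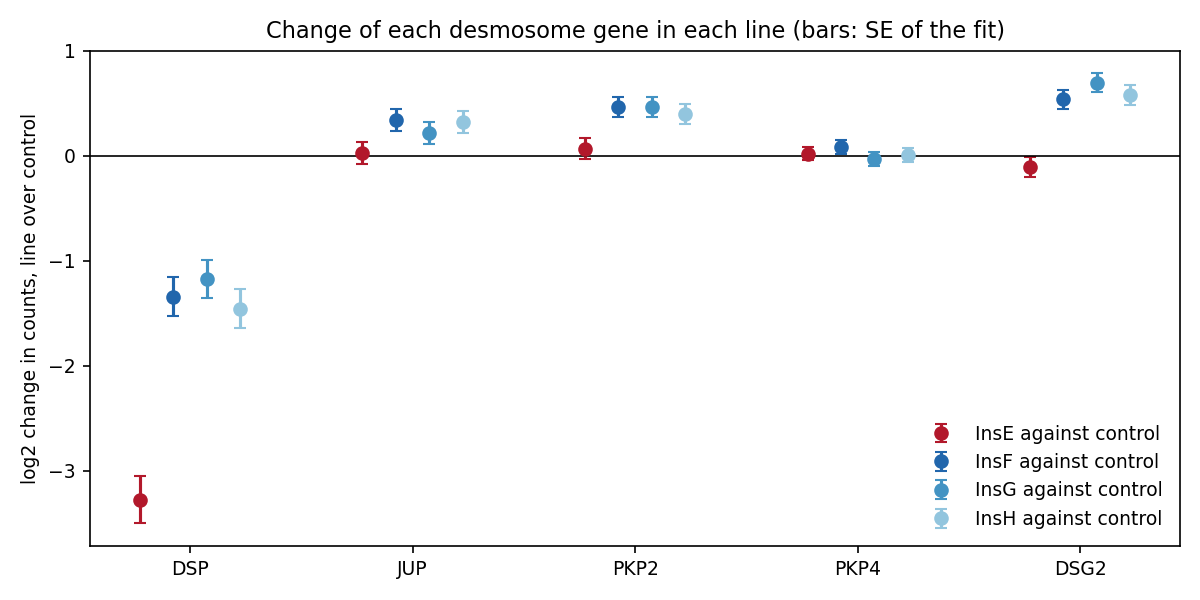
Log2 change in counts (vertical axis, line over control) of the 5 detected desmosome genes in InsE, InsF, InsG and InsH, with the SE of the edgeR fit as bars. DSP is at −3.28 for InsE and between −1.46 and −1.17 in the others, JUP, PKP2 and DSG2 are near 0 in InsE and between 0.22 and 0.70 in the others, and PKP4 is near 0 in each.

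The comparison of InsE with the other lines does not involve the control level, and of the set it is tested here for JUP, PKP2, PKP4 and DSG2. These genes were chosen with earlier results of these data known, a limit that leaving out the control does not remove. Both DSG2 and PKP2 were lower in InsE than in the mean of InsF, InsG and InsH. The log2 difference was −0.71 ± 0.08 for DSG2 (adjusted p = 0.000245) and −0.37 ± 0.08 for PKP2 (adjusted p = 0.00929) in edgeR's quasi-likelihood test, adjusted over all tested genes by the Benjamini-Hochberg method, and both InsE libraries were below all 6 others for each gene. In this comparison 24.2% of all genes were called. The PKP2 call was lost in edgeR without InsE replicate 1 (adjusted p = 0.124) and in DESeq2 (adjusted p = 0.0893), and the DSG2 call held in each of the alternatives run.

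By TPM, JUP was also below the other lines in both InsE libraries. In CPM, InsE replicate 2 (54.8) lay above InsG replicate 1 (53.3). JUP had a log2 difference in counts of −0.27 ± 0.09 and did not pass in edgeR (adjusted p = 0.0543). Replicates with the same number deviated together across the 4 derivative lines, JUP being higher in replicate 2 than in replicate 1 in each line. In a fit of the 8 line libraries with the replicate number as a block, JUP passed with a difference of −0.26 ± 0.04 (adjusted p = 3.23e-07), as it did with the block in all 10 libraries (adjusted p = 0.00155). That paired fit of 8 libraries called 50.7% of 15173 genes. For PKP4 the difference was 0.00 ± 0.05 (edgeR adjusted p = 0.977), with a 95% interval from −0.12 to 0.13, and for DSP, given as a description, it was −1.96 ± 0.21.

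Summed smooth muscle markers, mostly ACTA2 with TAGLN, were likewise higher in InsF, InsG and InsH than in InsE and control, at 257 and 277 TPM in InsE, 413 to 593 TPM in InsF, InsG and InsH and 247 to 251 TPM in control. Of those 6 markers, DES had no count in any library and CNN1 had none in InsE, InsH and control. The 6 fibroblast markers summed to 733 to 985 TPM in the derivative lines, InsE included, and to 439 TPM in control. Of these, 4 averaged above 1 TPM in each group, FAP had no count in any library and COL1A2 had none in InsE, InsG and control. Whether these cell-state markers have a part in the DSG2 and PKP2 differences was not tested.

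Among InsF, InsG and InsH, none of the 5 detected genes passed edgeR's test of any difference (adjusted p = 0.897 for DSP, 0.886 for JUP, 0.938 for PKP2, 0.826 for PKP4 and 0.83 for DSG2), and 0 of them had an unadjusted p under 0.05. DESeq2 and limma also called 0 of JUP, PKP2, PKP4 and DSG2, and edgeR called 0.09% of all genes there. With the replicate block in the 8 line libraries, which called 28.4% of all genes, DSG2 (adjusted p = 0.00329), JUP (adjusted p = 0.0139) and PKP4 (adjusted p = 0.0401) passed, whereas DSP (adjusted p = 0.741) and PKP2 (adjusted p = 0.761) did not. DSG2 was highest in InsG and JUP highest in InsF within the libraries of each replicate number. PKP4 was highest in InsH by TPM in both, and in InsF by the fitted counts.

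Summed over the 9 genes, desmosome transcripts made up 81.4 and 79.4 TPM in InsE, 97.9 to 103 TPM in InsF, InsG and InsH and 84.0 and 78.7 TPM in control, with DSP a small share in each. The proportion of cadherin to desmoplakin transcripts differed more. There were 83.7 and 129 DSG2 transcripts per DSP transcript in InsE and 29.2 to 47.1 in the other lines, against 10.6 and 9.8 in control. The InsE ratios rest on 25 and 5 DSP counts. DSP is the denominator and had been selected on its lower level than in control, with its fall in InsE among the results used. The ratios against control, and those of InsE against the other lines, therefore restate that choice in part. They are given as a description, with no test.

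Over the 10 libraries, the genes whose log2 CPM followed DSP most closely were PTPRD (a receptor tyrosine phosphatase, Pearson r = 0.99), GUCY1A3 (a subunit of soluble guanylate cyclase, 0.988), FAM208B (0.988), TBC1D14 (an autophagy regulator, 0.987) and RAPGEF5 (an exchange factor for Rap GTPases, 0.987), out of 11117 genes compared. The libraries share lines and a control, so these r values describe the ranking only. Their span was smaller than that of DSP. PTPRD averaged 67.7 CPM in InsE and 91.4 to 96.9 CPM in InsF, InsG and InsH, against 121 CPM in control.

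Of the genes lying wholly or partly within 500 kb of either end of DSP, 8 were tested. RREB1, a zinc finger transcription factor whose start lies 434 kb upstream, fell by 0.49 ± 0.06 on the log2 scale in the mean of the 4 lines (edgeR adjusted p = 0.000422). TXNDC5, an endoplasmic reticulum disulfide isomerase with its start 369 kb downstream, rose by 0.13 ± 0.04 (edgeR adjusted p = 0.035), a call that was lost in edgeR without either control library (adjusted p = 0.262 and 0.219) and without 5 of the 8 line libraries in turn. In limma on log2(TPM + 1), RREB1 (adjusted p = 0.0676) and TXNDC5 (adjusted p = 0.0782) did not pass. SNRNP48, the nearest tested gene, had a log2 change of −0.06 ± 0.08 (edgeR adjusted p = 0.639), and RIOK1 one of −0.01 ± 0.07. Over the neighbours of all 9 genes, 7 of 91 rose and 17 fell, near the 27.6% called among all genes.

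**Figure D3:**
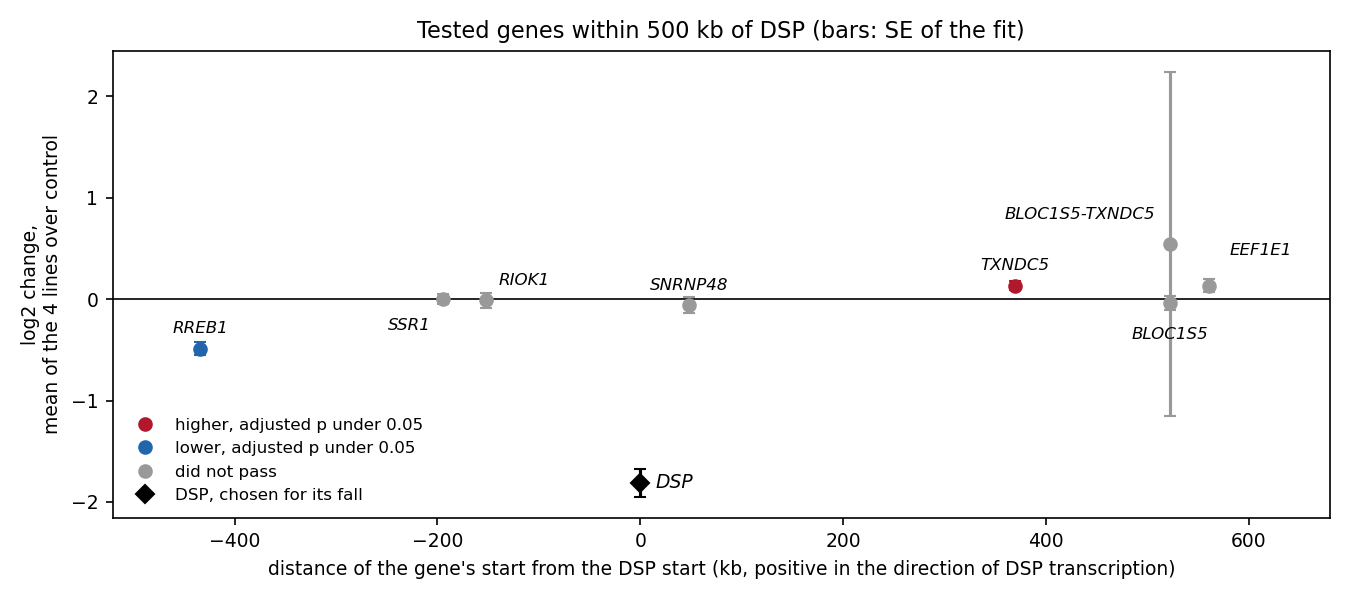
Log2 change in counts between the mean of the 4 lines and control (vertical axis, bars are the SE of the fit). Shown are DSP and the 8 tested genes that lie wholly or partly within 500 kb of either end of DSP. The horizontal axis is the distance of each start from the DSP start in kb. RREB1 at −0.49 and TXNDC5 at 0.13 passed the test, and the others shown in grey did not, among them BLOC1S5-TXNDC5, whose fit had an SE of 1.70.

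Genes around the desmosome were read from 8 lists, each against the background shares of the mean of the 4 lines (13.1% of genes higher and 14.5% lower, median log2 change 0.006) and of InsE against the other lines (11.4% higher and 12.8% lower, median 0.006). Of 4 tested genes of other desmosomal proteins and plakins, EPPK1 (epiplakin, log2 change 0.79) and EVPL (envoplakin, 0.77) rose in the mean of the 4 lines and none fell (median 0.34). EVPL was at 0.31 to 0.52 TPM in the lines and 0.22 TPM in control, and its call was lost in DESeq2 (adjusted p = 0.262) and in edgeR without either control library (adjusted p = 0.293 and 0.169). PERP, a tetraspan protein of desmosomes, was the 1 gene of these 4 that fell in InsE against the other lines (−0.68).

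Of 15 adherens junction genes, 2 rose and 5 fell over the mean of the 4 lines (median 0.01), among them CTNND2 (delta-catenin, −2.27), NECTIN1 (a nectin adhesion molecule, −1.05) and AFDN (afadin, listed as MLLT4, −0.25). Against the other lines, 1 rose and 6 fell in InsE (median −0.21), with CDH11 (a mesenchymal cadherin) at −0.77 and NECTIN1 at 0.66. CDH11 averaged 106 TPM in InsE and 234 to 276 TPM in the other lines, with 179 TPM in control. CTNND2 was low, at 0.075 to 0.44 TPM in the lines, from 6 to 17 counts in each. In control it averaged 0.68 TPM, from 70 counts. Of 12 intermediate filament genes, which include the nuclear lamins LMNA, LMNB1 and LMNB2 beside cytoplasmic filaments of the kind that desmoplakin binds, 2 rose and 3 fell over the mean of the 4 lines (median −0.04). INA (alpha-internexin) fell by 1.46 and SYNM (synemin) by 0.75, and NES (nestin) rose by 0.67. The other gene that rose was the lamin gene LMNA (0.245), which is named outside the rule, after its values were seen. In InsE against the other lines, 1 rose and 5 fell (median −0.38), NES by 0.60 and SYNM by 0.48. INA averaged 13.0 to 19.3 TPM in the lines and 44.7 TPM in control.

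Of 8 hemidesmosome genes, 1 rose (DST, a plakin, 0.30) and 1 fell (ITGA6, an integrin subunit, −0.17) in the mean of the 4 lines (median 0.01). In InsE against the other lines 4 fell (median −0.26), with DST and ITGA3 at −0.39 each. ITGA3 turned to a difference of 0.09 in limma on log2(TPM + 1) (adjusted p = 0.727). Of 5 genes of the intercalated disc, the heart junction that holds desmosomes, 1 rose and 2 fell over the mean of the 4 lines (median −0.17), namely ANK3 (ankyrin-G, 0.60), GJC1 (a connexin, −0.60) and TMEM43 (a nuclear membrane protein, −0.17), and 4 fell in InsE against the other lines (median −0.53), ANK3 by 1.3 and GJC1 by 0.89. Of 16 tight junction genes, 3 rose and 3 fell over the mean of the 4 lines (median 0.00). The largest were CLDN7 (a claudin, 2.12), JAM2 (a junctional adhesion molecule, 1.07) and MAGI1 (a scaffold, −0.36). CLDN7, also among the epithelial markers, did not average above 1 TPM in any group. In InsE against the other lines 4 fell (median −0.05), led by CLDN11 (−0.90) and TJP1 (ZO-1, −0.28).

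Of 18 regulators of desmosome assembly and turnover, 3 rose and 3 fell over the mean of the 4 lines (median −0.03), with EGFR (a receptor kinase, −0.57), GSK3B (a kinase that acts on desmoplakin, −0.40) and FLOT1 (flotillin-1, 0.24). In InsE against the other lines 1 rose and 8 fell (median −0.11), led by ADAM9 (a membrane protease, −0.43) and PRKCA (protein kinase C alpha, −0.42). Of 13 regulators of epithelial and mesenchymal state, 1 rose and 3 fell over the mean of the 4 lines (median 0.02), with SNAI2 (Slug, an E2-box repressor, −0.84), GRHL1 (a grainyhead factor that activates desmosomal genes in skin, −0.71) and KLF5 (an epithelial zinc finger factor, 0.51). In InsE against the other lines 3 rose and 1 fell (median 0.01), SNAI1 (Snail) at 0.53 and SNAI2 at −0.96. SNAI2 averaged 4.0 TPM in InsE and 7.91 to 9.66 TPM in InsF, InsG and InsH, against 12.3 TPM in control. Like DSP it was lowest in InsE, and any link between SNAI2 and DSP was not tested.

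All calls in these 8 lists are from edgeR at an adjusted p under 0.05, and the lists were chosen with earlier results known. In the mean of the 4 lines, those for EVPL, EPPK1, AFDN, LMNA, DST, ITGA6, CLDN7, MAGI1, ANK3, TMEM43, FLOT1 and KLF5 were lost when a control library was left out (adjusted p = 0.0506 to 0.293 in edgeR). In InsE against the other lines, those for PERP, NES, ITGA3, TJP1, CLDN11 and SNAI1 were lost without an InsE library (adjusted p = 0.055 to 0.176 in edgeR). In limma on log2(TPM + 0.1), CTNND2 (adjusted p = 0.157), GJC1 (0.112) and GRHL1 (0.0635) did not pass for the mean of the 4 lines, nor NECTIN1 (0.0572) for InsE. With the replicate block in the 8 line libraries, tight junction genes had 4 called higher and 7 lower in InsE. The other desmosomal and plakin genes had 1 higher and 2 lower. Of all genes in that fit, 25.3% were called higher and 25.4% lower. Among InsF, InsG and InsH, 0 genes of the 8 lists were called in edgeR without the block, where 0.09% of all genes were. With the block in the 8 line libraries 0 to 11 per list were called, where 28.4% of all genes were. The lists held 4 to 18 genes tested in the fit of all 10 libraries.

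**Figure D4:**
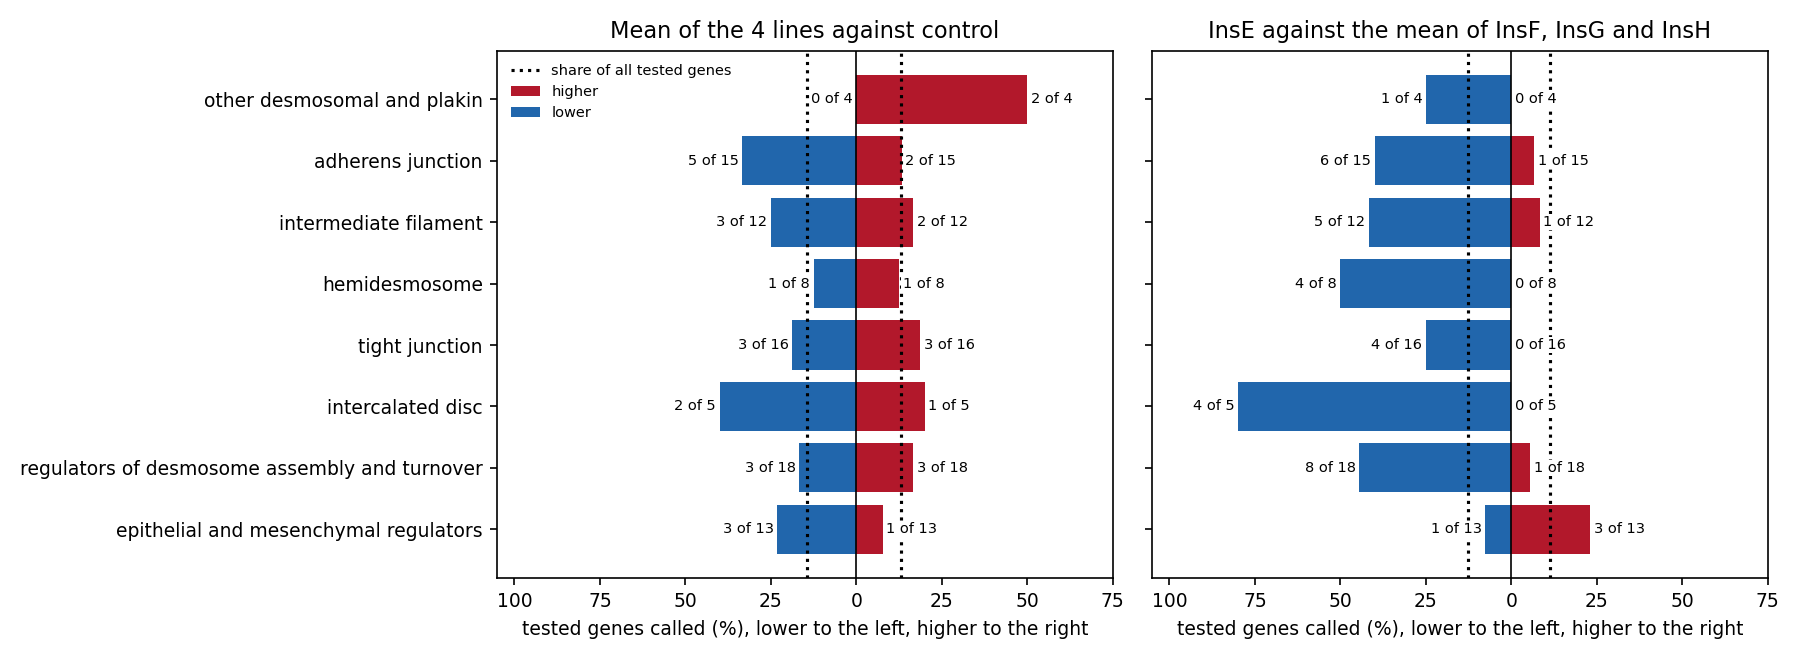
Share of the tested genes of each of 8 lists called higher (right, red) or lower (left, blue) at an adjusted p under 0.05, for the mean of the 4 lines over control (left panel) and in InsE against the mean of InsF, InsG and InsH (right panel), with dotted lines at the shares of all 15554 tested genes. In the right panel more genes were called lower than higher in every list except that of epithelial and mesenchymal regulators, where 3 were higher and 1 lower.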

How the data were processed

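RNA sequencing of poly(A) RNA gave 10 libraries, 2 for each of 5 groups taken from the sample labels. The submitters' processing notes name STAR (2.5.3), RSEM (1.3.2) and DESeq2 (1.38.3) and the build hg38, but neither strand setting nor annotation release. The expected counts, as deposited by the authors, are RSEM estimated counts per gene without normalisation, and 10.2% to 12.8% of all 58381 values per library, zeros included, lay more than 1e-06 from a whole number. The deposited TPM values are corrected for gene length by the authors and keep no depth. A series-wide table with 10 value columns was not used, because the names of those columns could not be matched to samples.

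Expected counts were rounded and tested in edgeR 4.0.16 (quasi-likelihood, TMM factors of 0.969 to 1.012, minimum count of 10, R 4.3.3), with all 10 libraries in 1 fit and 5 residual degrees of freedom. P-values were two-sided, Benjamini-Hochberg adjusted over 15554 genes, and the threshold was 0.05. DESeq2 1.42.0 and limma 3.58.1 were alternatives. The edgeR procedure was tested on simulated counts with independent replicates, for the mean of the 4 lines against control only. That test covers neither the replicate deviations shared by the derivative lines nor the other contrasts.

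The members and the gene lists were chosen with earlier results of these data known. Named from each list were up to 3 genes called in the mean of the 4 lines and up to 2 called in InsE against the other lines, by size of change; also the 5 genes closest to DSP by Pearson r, and neighbours of DSP that passed.

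Differences between replicates 1 and 2 correlated at 0.703 to 0.741 over 9849 genes for each of the 6 pairs of derivative lines, and at 0.049 to 0.054 between each line and control. The replicate numbers were therefore taken to pair the libraries within the derivative lines and not with control. No label states the pairing. The fit of the 8 line libraries alone with this block was added after seeing the data. Positions came from GENCODE 29 and promoters from RefSeq.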

Additional observations from a re-analysis of the deposited data

Results flagged for a closer look

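DSG2 and PKP2 differed between derivative lines by the test of the difference itself. DSG2 had a log2 difference of −0.71 (−0.7097) and PKP2 one of −0.37 (−0.3744) in InsE against the mean of InsF, InsG and InsH. The PKP2 call did not hold in DESeq2 (adjusted p = 0.0893), and edgeR called 24.2% of all genes in this comparison.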

How the results depend on the processing

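No desmosome gene with a call turned its direction in any alternative. Over all genes, the counts called in InsE, InsF, InsG, InsH and the mean of the 4 lines against control were 3611, 3461, 3163, 2863 and 4296. Limma on log2(TPM + 1) gave 1791, 1661, 1329, 1367 and 2236, and on log2(TPM + 0.1) 1804, 1671, 1333, 1375 and 2238. The replicate block, where the numbers do not pair lines with control, gave 5935, 5886, 5769, 5317 and 6679. DESeq2 gave 2212 in InsF, 2065 in InsG and 1856 in InsH. Leaving out 1 library gave 1429 to 3516, 1446 to 3390, 1170 to 3142, 1108 to 2845 and 1501 to 4311, in that order, lowest without control replicate 1 in each.

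For InsE against the mean of InsF, InsG and InsH, 3762 genes were called, and 2479 in DESeq2, 5942 with the replicate block, 7695 with it in the 8 line libraries and 1956 to 3495 without 1 library, lowest without InsE replicate 1. Of JUP, PKP2, PKP4 and DSG2, 2 were called, and 1 to 3 without 1 library. Among InsF, InsG and InsH, 14 genes were called, and 35 in DESeq2, 256 without the filter on low counts, 4 and 4 in limma with either pseudocount, 436 with the replicate block, 4310 with it in the 8 line libraries (3 of those 4 desmosome genes, against 0) and 1 to 14 without 1 library. The block changed no other call of a desmosome gene between derivative lines than those of JUP, PKP4 and DSG2 given above. The cause of these shifts was not tested. JUP passed in DESeq2 (adjusted p = 0.0483) and in limma (0.0289 and 0.0285), and without InsE replicate 1 had 0.387.

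Depth limits DSP, with 30 counts in InsE, and leaves PKP1, PKP3, DSC2 and DSC3 without a measured level. Scaling by library size alone moved the median gene by at most 0.061 (log2).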
